A study of Mus musculus with 12 samples.

Results

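Short skipped exons are internal exons of at most 50 nt that some transcripts of a gene contain and others leave out. They were taken as every event of the exactly skipped type whose end minus start plus 1 was at most 50 nt, and were counted once by gene, chromosome, start and end. In all 12 libraries together 1377 of 16599 distinct exactly skipped exons met this limit, and they lay in 1173 of 14275 listed genes. Just inside the limit were 65 exons of 50 nt, and just outside it were 108 exons of 51 nt. The RNA came from BV-2, an immortalised line of mouse microglia, in 4 groups of 3 libraries. The groups were cells given lipopolysaccharide and nicotinamide mononucleotide together (LPS+NMN), cells given lipopolysaccharide alone (LPS, part of the outer membrane of Gram-negative bacteria, used to activate microglia), cells given nicotinamide mononucleotide alone (NMN, a precursor of NAD), and control cells. The study set LPS+NMN against LPS in a question about ferroptosis, a form of cell death driven by iron-dependent lipid oxidation. Doses and times are not given in the sources used here. Separate cultures are not stated for the libraries of a group, and a p-value therefore covers the spread between these libraries, possibly a technical one, and nothing wider.

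Very short exons, often called microexons, are usually coding and often keep the reading frame, so that including one inserts a few amino acids into a protein. They have been studied most in neurons, where the splicing factor SRRM4 promotes their inclusion and where they often alter the surfaces through which proteins bind each other. Others occur in many tissues, and a short exon that breaks the frame can send a transcript to nonsense-mediated decay (NMD), the pathway that degrades transcripts with an early stop codon.

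An exon is taken here to be listed as skipped only where transcripts with and without it were both assembled; this reading is an assumption, since the sources used here do not name the program that made the catalogues. A listing is neither a level nor an inclusion rate. Under that reading an exon that is not listed may be always included, always skipped or not covered, and these cannot be told apart. Sequencing depth is unknown. A library listed between 5990 and 7338 skipped exons among 50784 to 55787 distinct events in 11911 to 12246 genes, with the largest catalogue in control replicate 1. The labels call the cells macroglia. Of 14 microglial marker genes 11 were listed in all 12 libraries, including Aif1, Csf1r and Trem2, while Cx3cr1 and C1qa were in 4 libraries and P2ry12 in 2; between 11 and 13 were listed per library. Astrocyte markers were listed at 1 or 2 of 6 per library, with Aqp4, Slc1a3, Aldh1l1 and Gja1 in none, neuronal markers at 1 or 2 of 7, with Rbfox3, Snap25 and Syt1 in none, and oligodendrocyte markers at 2 or 3 of 6, with Mog and Mobp in none.

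The shortest exons that recurred are shown first, since they show what a unit of a few codons looks like between its neighbours. Capitals mark the skipped exon and lower case the 12 bases on each side that belong to the neighbouring exons of the annotated transcript. Sequences are in the sense of the gene and come from GENCODE M21 transcripts, with positions on GRCm38. All 5 exons are coding.
Ap2m1 (6 nt, chr16:20540808-20540813, plus strand): atcaagagtcagCATCAGacgaaggaagaa
Nudt5 (9 nt, chr2:5866233-5866241, plus strand): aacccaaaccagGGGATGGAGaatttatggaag
Map4k4 (9 nt, chr1:40008331-40008339, plus strand): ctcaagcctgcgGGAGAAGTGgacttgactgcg
Dnm2 (12 nt, chr9:21490658-21490669, plus strand): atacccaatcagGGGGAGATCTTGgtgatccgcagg
Ptprs (12 nt, chr17:56421833-56421844, minus strand): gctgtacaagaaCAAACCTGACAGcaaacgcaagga

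Related genes sometimes carried short exons of equal length and similar sequence, and 3 such families are shown because their exons break the frame yet recur across paralogs. The families were chosen after their values were seen. The exon of Ptbp3 is similar in length only, sharing 5 of 34 bases (14.7%) with that of Ptbp1 or Ptbp2.
Ptbp1 (34 nt, chr10:79862014-79862047, plus strand): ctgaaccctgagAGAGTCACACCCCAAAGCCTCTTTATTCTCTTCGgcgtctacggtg
Ptbp2 (34 nt, chr3:119724612-119724645, minus strand): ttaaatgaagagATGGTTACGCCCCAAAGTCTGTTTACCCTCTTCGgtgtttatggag
Ptbp3 (34 nt, chr4:59546149-59546182, minus strand): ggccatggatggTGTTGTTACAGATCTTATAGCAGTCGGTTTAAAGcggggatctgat
Ewsr1 (35 nt, chr11:5079485-5079519, minus strand): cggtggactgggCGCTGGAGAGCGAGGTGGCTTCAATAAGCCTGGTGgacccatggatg
Taf15 (35 nt, chr11:83497262-83497296, plus strand): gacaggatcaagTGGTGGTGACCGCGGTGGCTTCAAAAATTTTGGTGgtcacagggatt
Srpk1 (26 nt, chr17:28600869-28600894, minus strand): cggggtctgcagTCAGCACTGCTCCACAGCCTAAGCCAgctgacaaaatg
Srpk2 (26 nt, chr5:23526790-23526815, minus strand): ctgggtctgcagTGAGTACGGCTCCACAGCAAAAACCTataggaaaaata

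The short exons were 3 to 50 nt long with a median of 39 nt (quartiles 30 and 45 nt), and lengths divisible by 3 stood out among them. The most frequent lengths were 45 nt with 100 exons, 39 nt with 88, 33 nt with 77, and 36 and 48 nt with 74 each, all divisible by 3. In all 700 of 1377 (50.8%) kept the frame in this sense, while 333 left a remainder of 1 and 344 a remainder of 2. Among the 15222 longer skipped exons 6259 (41.1%) had a length divisible by 3, and among those of 51 to 100 nt 2325 of 5407 (43.0%). At the stricter microexon limit of 27 nt there were 272 exons in 258 genes, of which 180 (66.2%) kept the frame.

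**Figure D1:**
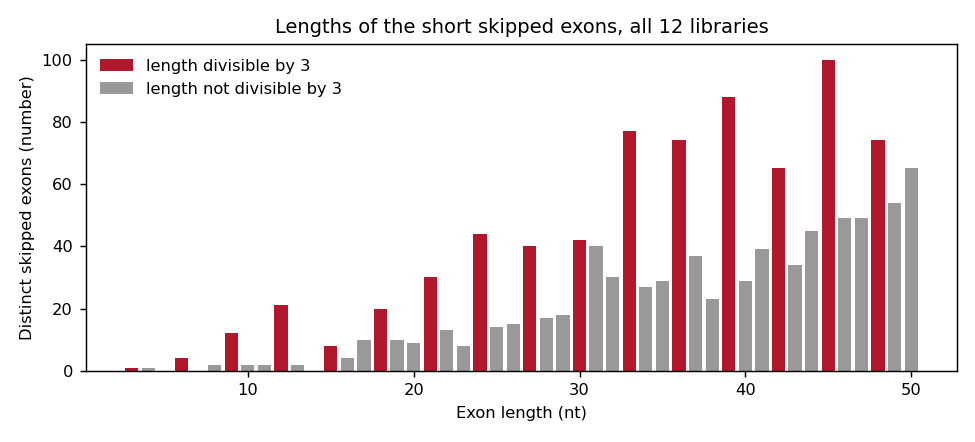
The number of distinct short skipped exons (y axis) at each exon length in nt (x axis), over all 12 libraries, with lengths divisible by 3 in red and others in grey. From 6 nt up to 48 nt each red bar stands above its grey neighbours, and the tallest is at 45 nt with 100 exons.

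The share was compared within each library, so that short and longer exons came from the same catalogue. Lengths divisible by 3 made up 56.4% ± 1.30 of short exons and 44.5% ± 0.499 of longer ones (SD, n = 12 libraries). The difference was 11.9 ± 1.21 percentage points (SD), and short exons were higher in 12 of 12 libraries (two-sided exact sign-flip permutation test, p = 0.000488, the smallest this design can give). The libraries list largely the same exons, so the test measures the spread between catalogues and not between genes. Among exons matched to annotated coding exons the shares were 66.6% ± 1.63 for short and 53.0% ± 0.538 for longer exons, a difference of 13.5 points (12 of 12 libraries, same exact test, p = 0.000488).

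The frame-keeping share differed between coding and other short exons. Of the 1377 exons 1070 (77.7%) had the gene, length and both flanking intron lengths of an exon in GENCODE M21, against 10443 of 15222 longer exons (68.6%). The matched short exons were coding in 778 cases, in the 5′ UTR in 99, in transcripts annotated for nonsense-mediated decay in 65, in non-coding transcripts in 61, partly coding in 61 and in the 3′ UTR in 6. Lengths divisible by 3 made up 470 of the 778 coding exons (60.4%), but 30 of 99 in the 5′ UTR (30.3%), 19 of 65 in NMD transcripts (29.2%), 23 of 61 partly coding (37.7%), 29 of 61 in non-coding transcripts (47.5%) and 127 of the 307 exons without a match (41.4%). A share of 33.3% would arise if each remainder were equally frequent. Within libraries, coding short exons exceeded the other short exons by 29.95 ± 2.49 points, at 66.6% ± 1.63 and 36.6% ± 1.82 (SD, n = 12; 12 of 12 libraries; two-sided exact sign-flip permutation test, p = 0.000488). For 778 of the 1070 matched exons the annotation also holds a transcript with the skipping junction, and for 292 it does not.

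Within the coding short exons the frame-keeping share was highest at the shortest lengths. It was 11 of 13 (84.6%) at 3 to 10 nt, 41 of 60 (68.3%) at 11 to 20 nt, 125 of 168 (74.4%) at 21 to 30 nt, 160 of 255 (62.7%) at 31 to 40 nt and 133 of 282 (47.2%) at 41 to 50 nt. The last class was close to the longer coding exons, at 3416 of 7108 (48.1%). By codon position, 311 of the 778 coding exons began at the first base of a codon, 278 at the next and 189 at the last.

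**Figure D2:**
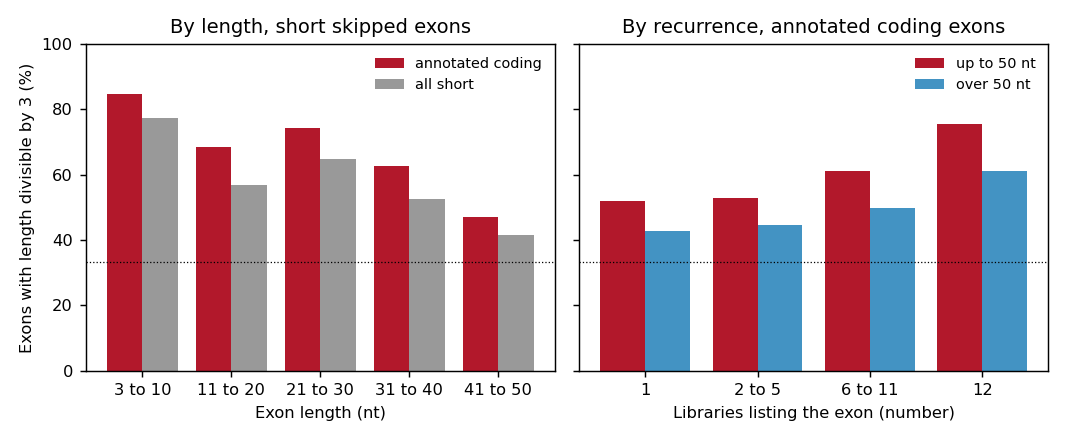
The percent of exons whose length is divisible by 3 (y axis), on the left by exon length for annotated coding short exons (red) and all short exons (grey), on the right by the number of libraries listing the exon for annotated coding exons up to 50 nt (red) and over 50 nt (blue); the dotted line marks 33.3%. Coding short exons run from 84.6% at 3 to 10 nt to 47.2% at 41 to 50 nt, and from 51.9% in exons of 1 library to 75.6% in exons of all 12.

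Introns beside short exons were slightly shorter. The median flanking intron was between 1600 and 1712.5 nt over the libraries for short exons and between 1871.5 and 2000.5 nt for longer exons. On the log10 scale the difference was -0.063 ± 0.0113 (SD, n = 12), lower for short exons in 12 of 12 libraries (two-sided exact sign-flip permutation test, p = 0.000488). Over distinct exons the intron before had a median of 1580 nt for short and 1945.5 nt for longer exons, and the intron after 1764 and 1992 nt.

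Recurrence over libraries was uneven. Of the 1377 short exons 428 (31.1%) were listed in 1 library, 687 in 2 to 11 and 262 (19.0%) in all 12, while longer exons were in 1 library in 36.9% and in all 12 in 13.5% of cases. For exons of 51 to 100 nt these shares were 33.0% and 17.2%. The exons seen in 1 library numbered between 25 in LPS+NMN replicate 3 and 59 in control replicate 1, and without control replicate 1 the distinct short exons were 1318. Of the 1377 exons 1368 (99.3%) lay in genes listed in all 12 libraries, and 1115 were absent from at least 1 library that listed their gene.

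**Figure D3:**
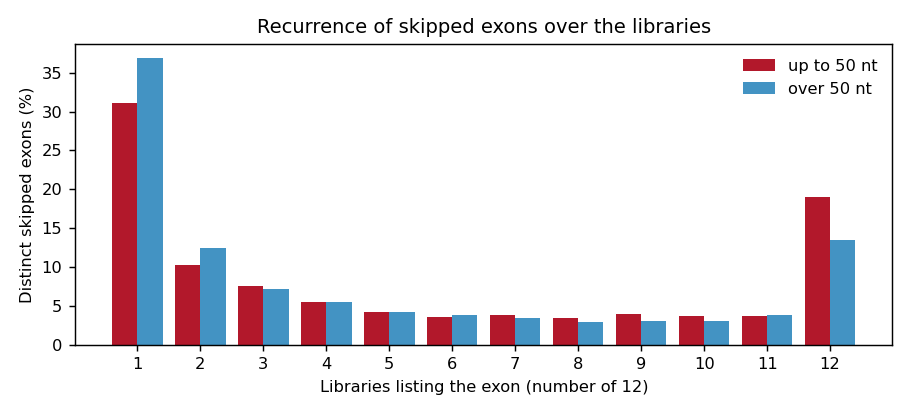
The percent of distinct skipped exons (y axis) by the number of libraries that list them (x axis), for exons up to 50 nt (red) and over 50 nt (blue). Both are highest at 1 library, and at 12 libraries the short exons stand at 19.0% and the longer ones at 13.5%.

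Coding exons in more libraries kept the frame in larger shares. Among coding short exons, lengths divisible by 3 made up 98 of 189 (51.9%) listed in 1 library, 103 of 195 (52.8%) in 2 to 5, 123 of 201 (61.2%) in 6 to 11 and 146 of 193 (75.6%) in all 12. Longer coding exons showed the same order at 42.7%, 44.5%, 49.9% and 61.1%. Over all short exons, coding or not, the shares were 46.3%, 44.4%, 53.6% and 64.5%, lower in 2 to 5 libraries than in 1. The share matched to the annotation also moved with recurrence, at 57.7%, 75.9%, 90.2% and 98.5% of all short exons. By definition every coding exon here is matched, so this bears only on the shares over all short exons. Its part in those was not tested.

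All 10 of the shortest exons among those in at least 6 libraries had a length divisible by 3. All but that of Col4a5, which had no match in the annotation, are annotated as coding. The 6-nt exon of Ap2m1, the mu subunit of the AP-2 clathrin adaptor, was in 11 of 12 libraries. The 9-nt exon of Nudt5, an ADP-sugar hydrolase, was in all 12. Exons of 9 nt in Iffo1 (an intermediate filament family member), Col4a5 (a collagen IV chain) and Map4k4 (a kinase of stress signalling) were in 9, 8 and 8 libraries. Among exons of 12 nt, that of Commd6 was in 12, that of Dnm2, the dynamin that pinches off endocytic vesicles, in 11, and those of Mapk8ip3 (a JNK scaffold), Ptprs (a receptor phosphatase) and Stx16 (a SNARE of the trans-Golgi) in 10 each.

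Genes already known for microexons carried many of these exons in the microglial line too, which follows in part from how that list was made. Of 119 listed genes on it 51 (42.9%) held a short skipped exon, against 8.22% of all listed genes, and 59 of their 69 exons (85.5%) kept the frame, against 50.8% of all short exons. Listed in all 12 libraries were exons of 24 nt in Picalm, a clathrin assembly protein, 27 nt in Git1, a GTPase-activating scaffold, and Mia2, a secretory pathway protein, 30 nt in Ppp3cb, a calcineurin catalytic subunit, 33 nt in Numb, a Notch antagonist and endocytic adaptor, and 36 nt in the splicing factor Mbnl1 and the scaffold Cask. Ppfibp1, a liprin, and Dnm1l, the dynamin of mitochondrial fission, each had a pair of exons in all 12, of 30 and 33 nt in Ppfibp1 and of 33 and 39 nt in Dnm1l. Examples from this group show exons whose length is a whole number of codons; those of Picalm and Numb begin at the first base of a codon, and that of Mbnl1 at the next base.
Picalm (24 nt, chr7:90194273-90194296, plus strand): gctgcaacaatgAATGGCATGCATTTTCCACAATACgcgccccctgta
Numb (33 nt, chr12:83825259-83825291, minus strand): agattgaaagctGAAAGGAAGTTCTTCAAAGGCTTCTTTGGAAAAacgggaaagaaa
Mbnl1 (36 nt, chr3:60621423-60621458, plus strand): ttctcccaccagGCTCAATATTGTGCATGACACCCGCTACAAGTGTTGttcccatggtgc

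Cytoskeletal and small GTPase regulators held short exons in 29 of 126 listed genes (23.0%), against 8.22% of all listed genes. Of those with any skipped exon 33.0% were hosts, against 16.8% of all such genes. Of the 42 exons of these regulators 31 (73.8%) kept the frame. In all 12 libraries were exons of 18 nt in Dst, a linker of cytoskeletal filaments, and Fmnl1, a formin of macrophages, and of 21 nt in Arhgef6, a Rac exchange factor, and Diaph2, another formin. Endocytosis and membrane trafficking genes had 15 hosts of 119 (12.6%) and 12 of 18 exons in frame (66.7%); among genes with any skipped exon 17.4% were hosts, against 16.8% of all. Exons of 33 nt in Vps39, 36 nt in Synrg and 42 nt in Ap2b1, the beta subunit of AP-2, were in all 12 libraries. Chromatin and transcription regulators had 26 hosts of 134 (19.4%), and 23.2% among those with any skipped exon. Of their exons 16 of 29 were in frame (55.2%, near the 50.8% of all short exons). In all 12 libraries were exons of 27 nt in Max, the partner of Myc, and in the corepressor Ncor1. So were exons of 36 nt in Crem and Mta1.

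Splicing and RNA processing regulators held short exons in 26 of 101 listed genes (25.7%), and 13 of their 36 exons (36.1%) kept the frame, against 50.8% of all short exons. Of the 36 exons 15 were in all 12 libraries. The coding 27-nt exon of Fip1l1, a polyadenylation factor, and 30-nt exon of Luc7l2, a U1 snRNP-associated factor, kept the frame. The 26-nt exon of Hnrnpc, which lies in the 5′ UTR, and a 29-nt exon of Sf3b3, without a match in the annotation, have other lengths. Neither is annotated as coding, so no break of a reading frame can be read from them.

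In the PTB family of splicing repressors, the 34-nt exons of Ptbp1, Ptbp2 and Ptbp3 were listed in all 12 libraries. The exons of Ptbp1 and Ptbp2 shared 26 of 34 bases (76.5%) and both began at the first base of a codon. In mammals, leaving this exon out of Ptbp1 or Ptbp2 shifts the frame and exposes the transcript to decay, and PTBP1 protein is known to repress the exon of Ptbp2. The 34-nt exon of Ptbp3 shared 5 of 34 bases (14.7%) with either and is another exon of equal length. The 35-nt exons of Ewsr1 and Taf15, genes of related RNA-binding proteins, both began at the last base of a codon and shared 26 of 35 bases (74.3%). The Ewsr1 exon was in 7 libraries, of which 2 were LPS+NMN, 3 LPS, 2 NMN and 0 control. The Taf15 exon was in 5, of which 2 were LPS+NMN, 0 LPS, 1 NMN and 2 control. In Srpk1 and Srpk2, kinases of SR splicing factors, the 26-nt exons shared 19 bases (73.1%). The Srpk1 exon was listed in LPS+NMN 2, in all 3 LPS libraries, in NMN 2 and in all 3 control libraries. The Srpk2 exon was in LPS+NMN 2, in all 3 LPS libraries, in no NMN library and in control 3.

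Innate immune genes held short exons in 17 of 156 cases (10.9%), against 8.22% of all listed genes. Among genes with any skipped exon the share was 15.7%, below the 16.8% of all. Of their exons 15 of 20 (75.0%) kept the frame, and the median exon was in 2.5 libraries, where the median of all short exons was 4; this difference was not tested. In all 12 libraries were a 24-nt exon in the 5′ UTR of Sting1, the adaptor of cytosolic DNA sensing, and a coding 33-nt exon of Malt1, a paracaspase of NF-κB signalling. A 30-nt exon of the interferon-induced Ifi27 was in 11 libraries. Of genes of ferroptosis, iron and NAD metabolism 5 of 76 (6.58%) were hosts, and 12.8% of those with any skipped exon. Exons of 39 and 42 nt in Pcbp2, an RNA-binding protein that also carries iron, and a 47-nt exon of Sirt2, an NAD-dependent deacetylase, were in all 12 libraries, and a 34-nt exon of Parp9 was in LPS+NMN 3 and NMN 2.

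The number of short exons overlapped between the groups. Libraries listed 605, 597 and 626 in LPS+NMN, 615, 593 and 595 in LPS, 571, 624 and 621 in NMN, and 698, 635 and 591 in control. The control libraries spanned the widest range and overlapped every other group. LPS averaged 601.0 ± 12.2 and control 641 ± 53.8 (SD, n = 3 each; difference -40.3, two-sided exact permutation test, p = 0.4). NMN averaged 605 ± 29.8 (difference from control -36.0, exact permutation p = 0.4) and LPS+NMN 609 ± 15.0 (difference from control -32.0, exact permutation p = 0.5; from LPS 8.33, p = 0.5). The smallest p that 3 against 3 allows is 0.1. Without control 1 the differences from control were -12.0 for LPS, -7.67 for NMN and -3.67 for LPS+NMN. As a percent of skipped exons the direction turned, to 0.072, 0.0032 and 0.118 points higher than control (exact permutation p = 0.6, 1 and 0.1). The short exons made up between 9.34% and 9.70% of the skipped exons of a library.

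The frame-keeping share was likewise close in all groups. It was 56.4%, 55.1% and 55.1% in LPS+NMN, 55.9%, 55.5% and 55.1% in LPS, 58.8%, 56.7% and 58.3% in NMN, and 55.2%, 57.5% and 56.9% in control. Differences were -0.983 points for LPS against control (exact permutation p = 0.3), 1.46 for NMN against control (exact permutation p = 0.3), -0.969 for LPS+NMN against control (exact permutation p = 0.2) and 0.014 for LPS+NMN against LPS (exact permutation p = 1). Among exons of at most 27 nt, of which a library listed between 98 and 133, the share was 72.8%, 67.8% and 72.4% in LPS+NMN, 74.4%, 73.7% and 72.8% in LPS, 83.7%, 78.8% and 79.7% in NMN, and 75.2%, 73.0% and 73.7% in control. The 3 NMN libraries stood above the 3 control libraries, by 6.73 points on average (exact permutation p = 0.1, the smallest possible). The LPS+NMN libraries stood below control (difference -2.97 points) and below LPS (difference -2.64 points, exact permutation p = 0.1 for each). Both separations were narrow, with LPS+NMN 1 at 83 of 114 exons (72.807%), LPS 3 at 75 of 103 (72.8155%) and control 2 at 92 of 126 (73.0159%). NMN 1, with the highest share, listed the fewest such exons at 98.

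**Figure D4:**
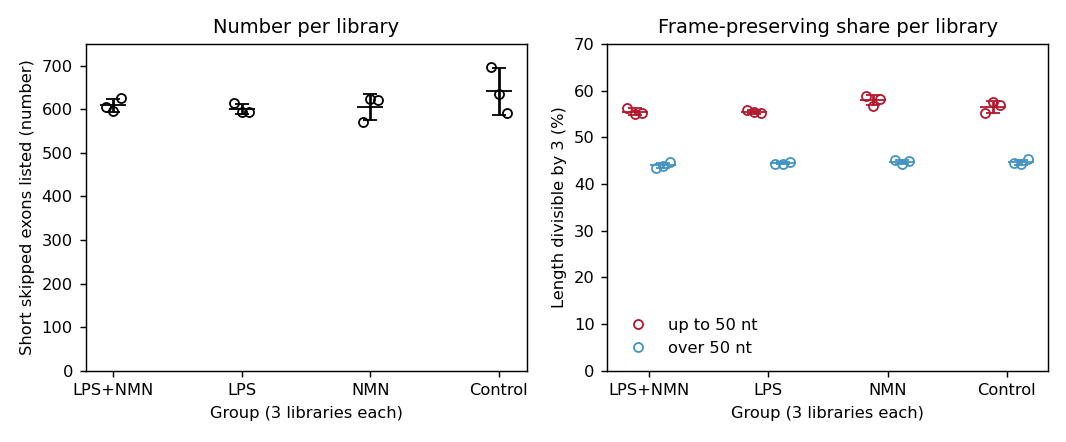
The number of short skipped exons per library (left) and the percent of exons with a length divisible by 3 (right; red up to 50 nt, blue over 50 nt), by group, with open circles for libraries and bars for the mean and SD of 3. Numbers run from 571 to 698 with overlapping groups, and every red circle lies above every blue one.

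Of the short exons, 562 were listed in at least 1 library of each group. Listed in at least 1 library and in all 3 of a group were 899 and 372 in LPS+NMN, 883 and 378 in LPS, 866 and 384 in NMN, and 936 and 398 in control. Exons listed in a single group numbered 108 in LPS+NMN, 112 in LPS, 100 in NMN and 137 in control. Of those, in all 3 libraries of the group were 0 in LPS+NMN, 3 in LPS, 0 in NMN and 2 in control. No short exon was in all 9 treated libraries and absent from control. Control 1, the largest catalogue, alone held 59 of the 428 short exons listed in 1 library, so single-group counts also follow catalogue size. The same counts over all skipped exons are not given here, so these are not a result about short exons or a treatment.

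Exons listed in all 3 LPS and no control library numbered 9 of 1136 (0.792%), against 0.579% of all skipped exons. The reverse held for 9 (0.792%), against 0.975% of all. An exact test of 3 against 3 listings of a single exon cannot go below p = 0.1, so none was called, and shares this near the background are not a result about short exons. Among those present with LPS were the 33-nt exon of Col18a1, the collagen that gives rise to endostatin, and the 47-nt exon of Pilra, an inhibitory receptor of myeloid cells. Both were in LPS+NMN 1 and 2, all LPS and all NMN libraries, and no control library. The Ewsr1 exon shown above was in LPS+NMN 1 and 3, all LPS, NMN 1 and 3, and no control library. A form of it 3 nt longer, at 38 nt, had no match in the annotation. This form was in LPS+NMN 3, all LPS, NMN 1 and 3, and no control library, so the second listing is not an independent one. A 33-nt exon of Zfp827 was in all LPS+NMN and LPS libraries, NMN 2 and 3, and no control library, and a 30-nt exon of Fbrsl1 was in the 3 LPS libraries alone. Among those absent with LPS and present in all control libraries were exons of 27 nt in the microtubule-affinity kinase Mark3, 33 nt in Ppfibp1, 36 nt in the calcium channel gene Cacna1a, 43 nt in Mob4, 49 nt in Apip, an enzyme of methionine salvage, and 50 nt in the selenoprotein gene Selenof. The exon of Apip was in all LPS+NMN and control libraries and in no LPS or NMN library.
Col18a1 (33 nt, chr10:77057369-77057401, minus strand): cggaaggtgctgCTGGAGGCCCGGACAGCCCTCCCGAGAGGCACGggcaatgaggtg
Mark3 (27 nt, chr12:111651958-111651984, plus strand): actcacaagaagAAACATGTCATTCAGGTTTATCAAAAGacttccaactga
Cacna1a (36 nt, chr8:84635549-84635584, plus strand): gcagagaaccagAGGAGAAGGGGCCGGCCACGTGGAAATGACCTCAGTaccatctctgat
Apip (49 nt, chr2:103087113-103087161, plus strand): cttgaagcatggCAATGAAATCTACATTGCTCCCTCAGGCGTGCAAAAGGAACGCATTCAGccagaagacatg

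For NMN against control, 6 of 1131 exons (0.531%) were in all NMN and no control library, against 0.648% of all skipped exons, and 11 (0.973%) showed the reverse, against 0.823%. Present with NMN were, besides Col18a1 and Pilra, exons of Pcgf6 (18 nt), Ccny (35 nt), Cast (36 nt), the inhibitor of calpain, and Smim20 (48 nt). Among those absent with NMN were the Apip exon and exons of 12 nt in Uchl3, a ubiquitin hydrolase, and 26 nt in Sfxn4. Others were of 27 nt in Nkapd1, 37 nt in Chd6 and 39 nt in Tmem229b. The Nkapd1 exon lies in the 5′ UTR, and those of Chd6 and Tmem229b had no match in the annotation. Those of Pcgf6 and Smim20 lie in NMD transcripts. The Uchl3 exon was in all LPS+NMN libraries, LPS 1, no NMN library and all control libraries.

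For LPS+NMN against control, 4 of 1142 exons (0.35%) were in all LPS+NMN and no control library, against 0.744% of all, and 6 (0.525%) showed the reverse, against 1.03%. Those present were the Zfp827 exon and exons of Bclaf3 (26 nt), Dennd1c (33 nt), a regulator of Rab GTPases, and Parl (49 nt), a protease of the mitochondrial inner membrane. Those absent included the 12-nt exon of Incenp, a subunit of the chromosomal passenger complex, and the 36-nt exon of Clta, a clathrin light chain. The Incenp exon was in no LPS+NMN library, in LPS 1 and in all NMN and control libraries. The Clta exon was in no LPS+NMN library, in LPS 2 and 3, in NMN 2 and 3, and in all control libraries. The other 4 were those of Cep55 (43 nt), Pold3 (46 nt), Ergic2 (33 nt) and Tmem39b (45 nt), of which Ergic2 and Tmem39b were in the 3 control libraries alone. The exons of Bclaf3, Cep55 and Tmem39b had no match in the annotation. That of Pold3 lies in the 5′ UTR, and that of Zfp827 is partly coding.
Uchl3 (12 nt, chr14:101654208-101654219, plus strand): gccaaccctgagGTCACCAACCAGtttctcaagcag
Incenp (12 nt, chr19:9883192-9883203, minus strand): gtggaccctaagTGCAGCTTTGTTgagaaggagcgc
Clta (36 nt, chr4:44031400-44031435, plus strand): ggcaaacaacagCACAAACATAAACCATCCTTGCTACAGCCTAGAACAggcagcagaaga

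For LPS+NMN against LPS, the contrast the study was built on, 6 of 1110 exons (0.541%) were in all LPS+NMN and no LPS library, against 0.503% of all, and 11 (0.991%) showed the reverse, against 0.598%. Present with LPS+NMN were the Apip exon and those of Mrpl33 (19 nt), Mapk8ip3 (24 nt), Tk1 (32 nt), the thymidine kinase of dividing cells, Trps1 (45 nt) and Zmat1 (45 nt). The exons of Mrpl33, Mapk8ip3 and Tk1 were each in NMN 2 and control 1 besides. Those of Trps1 and Zmat1 had no match in the annotation. Among those absent with LPS+NMN were exons of 12 nt in the chromatin reader Zmynd8, 15 nt in Akap8 and 35 nt in Mier1. Others were of 36 nt in Tafazzin, which remodels cardiolipin in mitochondria, and of 45 nt in Pms1 and Nufip2. Of these, only the Zmynd8 exon is annotated as coding. Those of Akap8, Mier1 and Nufip2 lie in non-coding transcripts and that of Pms1 in the 5′ UTR, and the name Tafazzin was not found in the annotation. The Zmynd8 exon was in no LPS+NMN library, in all LPS libraries, in no NMN library and in control 2.
Mapk8ip3 (24 nt, chr17:24920472-24920495, minus strand): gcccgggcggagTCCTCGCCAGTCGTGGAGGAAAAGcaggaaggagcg
Zmynd8 (12 nt, chr2:165852868-165852879, minus strand): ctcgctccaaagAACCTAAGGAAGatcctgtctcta

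**Figure D5:**
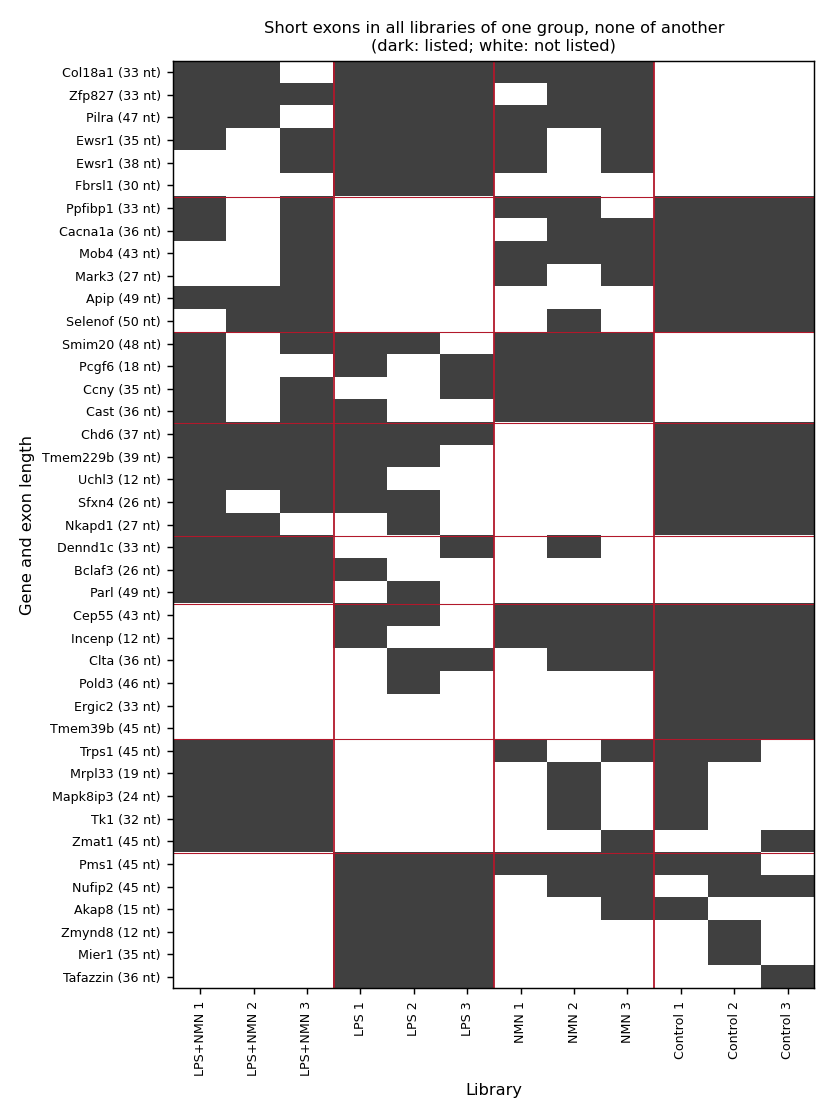
Listing (dark) or no listing (white) in each of the 12 libraries (x axis, by group) of the short exons named above (y axis, gene and exon length) that were in all 3 libraries of one group and none of another. Blocks from top to bottom are exons present or absent with LPS, with NMN and with both, set against control, and then with both, set against LPS; an exon that meets several patterns is drawn once.

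The host gene was listed in all 6 libraries compared for each of these exons, except 1 of the 9 present with LPS. Several hosts held few distinct events, and these moved with the exon. Means with LPS and in control were 5 and 2.67 in Pilra, 6.67 and 2.67 in Zfp827, 2.33 and 5 in Mob4, and 2 and 4 in Selenof. Of the hosts named for this comparison, only Fbrsl1 (6.33 in each) and Mark3 (9.67 and 9) did not move with the exon. The part of gene coverage in a listing was not tested. The comparisons with control share the same 3 control libraries, so their exons are not independent. Whether the host genes' catalogues changed as a whole was read from a fit over 11671 genes, with the number of distinct events per gene as the value. None of the 1161 host genes tested passed an adjusted p of 0.05 in any comparison (limma, Benjamini-Hochberg), against 0.257% of all genes higher and 0.0428% lower with LPS, 0.223% and 0.00857% with NMN, 0.283% and 0.0514% with LPS+NMN, each against control, and 0% in both directions for LPS+NMN against LPS. At an unadjusted p under 0.05 there were 83 hosts (7.15%) with LPS, where all genes had 7.47%, 73 (6.29%) with NMN, where all had 7.0%, and 74 (6.37%) with LPS+NMN, where all had 7.45%. For LPS+NMN against LPS there were 69 (5.94%), where all genes had 4.46%. limma without trend and robust moderation also called 0 hosts in each. Without control 1, limma called 2 hosts with LPS, 1 with NMN and 2 with LPS+NMN, each against control; without LPS 1 or control 3 it called 1 with LPS, without NMN 3 or control 3 it called 1 with NMN, and without LPS+NMN 3, control 2 or control 3 it called 1 with LPS+NMN. Calls over all genes were not counted in the runs without a library, so these few hosts cannot be set against a background share. The smallest adjusted p of a host in the main fit was that of Mms22l, a replication fork factor, with LPS (log2 difference in events + 1 of -1.34 ± 0.26 SE, limma adjusted p = 0.0637).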

How the data were processed

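The deposited file of each of the 12 libraries is a catalogue of transcript events. Per the file headers, a line gives an event's type, gene, chromosome, start, end, strand and pattern; the authors' files hold no count, level or depth, so the values used are positions and listings. The tools in the submitters' processing notes are HOMER, MACS2 2.1.0 and BWA 0.7.12, with GRCm38 as build; no source used here says which program wrote the catalogues. Assembly of reads across junctions decides what is listed, and a short exon must be spanned within few reads; this was not tested. Groups and replicate numbers come from the sample titles.

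Exactly skipped exons of at most 50 nt were counted once by gene, chromosome, start and end (python 3.11.15, pandas 2.3.3). Event positions belong to an unnamed mouse assembly and were left unconverted: of 1070 exons matched to GENCODE M21 by gene, exon length and both intron lengths, 17 had the same start on GRCm38. Positions and sequences printed are those of the matched annotated exon. Of the 14275 gene names 13939 matched by name, 206 by an older name and 130 not at all. In 20 of 1371 exons the listed strand was opposite to that of the annotated gene.

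Group values were tested with exact permutation tests (scipy 1.17.1), shares within libraries with sign flips over 12 libraries, and events per gene with limma 3.58.1 in R 4.3.3 on log2(events + 1), 1 mean per group, 8 residual degrees of freedom, genes with at least 1 event in 3 libraries, after a test on simulated data. Members, the 7 gene lists and the tests were chosen with earlier results of these data known. Named exons are the 10 shortest in at least 6 libraries, up to 12 in known microexon genes, up to 6 per comparison and direction listed throughout one group and nowhere in the other, up to 4 for each other list and those of up to 6 genes with 3 or more; others are said to be chosen after their values were seen, and not every exon these rules name is printed. The known microexon list and the chromatin list share 1 gene.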

Additional observations from a re-analysis of the deposited data

How the results depend on the processing

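The excess of lengths divisible by 3 over longer exons held in 12 of 12 libraries under every alternative run, from 9.37 points against exons of 51 to 100 nt to 29.8 points at a limit of 27 nt, and the flanking intron difference stayed lower, from -0.127 at 27 nt to -0.041 against 51 to 100 nt. The comparison of coding exons alone was added after seeing the data. Taken as a percent of skipped exons, the number of short exons turned higher than in control: by 0.072 points with LPS (exact permutation p = 0.6), 0.0032 with NMN (exact permutation p = 1) and 0.118 with LPS+NMN (exact permutation p = 0.1, the smallest possible). At 27 nt the frame-keeping share of LPS+NMN against LPS turned to -2.64 points (exact permutation p = 0.1). The highest LPS+NMN library, at 72.807%, and the lowest LPS library, at 72.8155%, nearly tied. Counts of exons in all libraries of one group and none of another changed by at most 2 in genes listed in all 6 libraries or with approximately skipped exons added, both chosen after seeing the data.

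Leaving out 1 library in turn, the difference in number ran from -65.5 to -12.0 for LPS, -61.2 to -7.67 for NMN and -57.2 to -3.67 for LPS+NMN, each against control, and 0 to 15.3 for LPS+NMN against LPS. The frame-keeping share ran from -1.65 to -0.491, 0.789 to 2.07, -1.64 to -0.477 and -0.404 to 0.225 points in the same order. Host genes called ran from 0 to 2 for LPS (2 without control 1, 1 without LPS 1 or control 3) and 0 to 1 for NMN (1 without NMN 3, control 1 or control 3). They ran from 0 to 2 for LPS+NMN (2 without control 1, 1 without LPS+NMN 3, control 2 or control 3) and 0 to 0 for LPS+NMN against LPS. Calls over all genes were not counted in these runs, and the cause was not tested.

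No pairing by replicate number was seen, which does not exclude one. Same-numbered libraries of different groups correlated between -0.0257 and 0.0179, and differently numbered ones between -0.015 and 0.0198. With a replicate block the differences were the same (-40.3, -36.0, -32.0 and 8.33 exons), exact permutation p was 0.5, 0.75, 0.5 and 0.75, and 0 host genes were called. Without counts, no counting error can be given.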

Other observations

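Some genes held several short exons: 1002 genes had 1, 142 had 2, 25 had 3 and 4 had 4. In Cd47, the "do not eat me" signal that restrains phagocytosis and whose cytoplasmic tail is known to vary by splicing, the 4 were a coding 25-nt exon in 10 libraries, a coding 33-nt exon in 4, a coding 32-nt exon in LPS+NMN 2 and LPS 3, and a 45-nt exon of a non-coding transcript in 10. Dnm1l had 33-nt and 39-nt exons in all 12 libraries, a 47-nt exon in 10 and a 9-nt exon without a match in NMN 1. Add1, a cytoskeletal adducin, had a 37-nt exon in 12 libraries and, with a start 3 nt later, a 34-nt form in 7. There were 14 pairs of exons in 1 gene that shared an edge and differed by 3 nt at the other, and 72 exons in all overlapped another short exon of their gene.

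Chosen after their values were seen, pairs of coding short exons in genes of a shared name stem numbered 186, of which 29 (15.6%) had equal length and 16 of these shared at least 60% of bases. Beside the families in the report these included 36-nt exons in Mbnl1 (12 libraries) and Mbnl2 (8), with 86.1% identity, 27-nt exons in Mark2 (10) and Mark3 (6), with 77.8%, 31-nt exons of the arrestins Arrb1 (2) and Arrb2 (12), with 74.2%, and 24-nt exons in Mef2a (10) and Mef2c (1), with 70.8%. Among immune genes, also chosen after their values were seen, a 21-nt exon of the Fc receptor Fcgr4 was in all 12 libraries. A 45-nt exon of Il15 was in 9 libraries and a 12-nt exon of Il17ra in 5, each with libraries of all 4 groups. A 48-nt exon of Tnf was in LPS+NMN 1 and LPS 3, and exons of Tyrobp (27 nt), Relb (9 nt) and Ptprc (24 nt) were each in a single control library.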
